A study of Lachancea kluyveri with 9 samples.

Results

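A set of gene models of the yeast Lachancea kluyveri had RNA that was high in a cells and lower in both other cell types. RNA was measured in 3 libraries each of a cells (strain yLB76), alpha cells (strain yLB77) and a/alpha cells (strain FDy22). The a and alpha cells are the haploid mating types, and a/alpha cells hold both mating-type alleles. All strains are given as wild-type prototrophs, no group is labelled with a deletion or treatment, and each cell type is 1 strain, so strain and cell type cannot be told apart. Cultures grew in YPED medium at 30 °C to an optical density of 0.5 to 1.0, and the series title concerns the repression of haploid-specific genes. The members were chosen by their values: counts were divided by size factors, 10 was added to each group mean, and a model was taken where a cells were at least 2 times both alpha and a/alpha cells and all 3 a libraries lay above the other 6. This found 54 of 5189 gene models. The demand on single libraries removed none, since every model with both ratios at 2 or more met it.

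In budding yeasts, a-specific genes equip a cells for mating: they make, process and export the a pheromone, detect the alpha pheromone at the surface and help cells to stick to a partner. In Saccharomyces cerevisiae these genes are shut off by a repressor made in alpha and a/alpha cells, while in many other yeasts a protein encoded at the a mating-type locus switches them on. Haploid-specific genes, by contrast, serve a and alpha cells alike and are off in a/alpha cells. The deposited files pair no gene name with the models, so no member is matched here to a known mating gene, and the cell type labels were not checked against the mating-type genes. Each model is called by its chromosome letter and first base, so that B153832 starts at base 153832 of chromosome B, and its rank is its place by the smaller of its ratios. Coordinates are those of the deposited table, for which no genome build is named in the sources used here.

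Libraries held between 6379488 and 10776548 counts, except a/alpha replicate 1 with 743244. There 3 counts, taken as the limit of detection, equal 25.3 normalised counts, against 1.73 to 2.78 in the other libraries. In that library 15 of the 54 members had 3 counts or fewer and 3 had none, so their spread in a/alpha cells is poorly known. Such limits cover counting error only. The column headers call the 3 libraries of a cell type biological replicates and say no more. In such bulk samples, fewer cells with an RNA and less of it per cell cannot be told apart.

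The values that chose the members are given first, as a description without a test. The members' median level was 525 normalised counts in a cells, against 139 for alpha cells and 76.5 for a/alpha cells. Over all models the medians were 296 for a, 287 for alpha and 281 for a/alpha cells. The median ratio was 2.76 over alpha cells and 3.57 over a/alpha cells. Together the 54 members took up 1.72% ± 0.14 of the a libraries, 0.271% ± 0.0097 of the alpha libraries and 0.165% ± 0.027 of the a/alpha libraries (share of counts, SD, n = 3 each). By edgeR's quasi-likelihood test all 54 were called higher in a than in alpha cells, beside 8.05% of 5042 tested models, and 53 higher in a than in a/alpha cells, beside 7.32%. None was called lower in a than in a/alpha cells, beside 5.61%. The rule used these contrasts, so nothing is read from those counts.

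A group of 5 members stood far from the rest, with a smaller ratio of 18.9 or more, while the next was 7.23. First was B153832, which ends at base 155205 on the plus strand (augustus_masked-SAKL0B-processed-gene-1.17). It had 4848, 4773 and 6222 normalised counts in a replicates 1, 2 and 3, 44.4, 39.4 and 49.9 in alpha cells and 0, 10.4 and 9.22 in a/alpha cells. Its ratios were 96.9 over alpha and 319.9 over a/alpha cells. The a libraries lay far above the rest, and the alpha libraries above those of a/alpha cells.

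Second was H2039397, on the minus strand to base 2040980 (augustus_masked-SAKL0H-processed-gene-20.42). Its values were 5253, 4076 and 5094 in a cells, against 46.3, 41.1 and 49.9 in the alpha and 25.3, 27.1 and 25.7 in the a/alpha libraries. Its lowest a library stood at 81.6 times the highest of the other 6. The value of 25.3 in a/alpha replicate 1 rests on 3 counts. The third, H1844663, is a short minus-strand model that ends at base 1844956 and has 294 bp of coding sequence. It was the most abundant member, with 16144, 21875 and 27763 in a cells, against 236, 372 and 450 in the alpha and 8.44, 6.35 and 17.8 in the a/alpha libraries. The 3 cell types did not overlap, and alpha cells lay between the others.

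Ranks 4 and 5 were held by long models, A894334 (plus strand, to base 898263) and F524553 (plus strand, to base 528101), of 3930 and 3549 bp. A894334 had 3234, 3697 and 3291 normalised counts in a cells, against 165, 121 and 128 in the alpha and 110, 127 and 132 in the a/alpha libraries. F524553 had 807, 1231 and 1047 in a cells, against 28.7, 44.6 and 58.8 in the alpha and 50.6, 36.9 and 47.4 in the a/alpha libraries. In both, the a libraries stood apart while alpha and a/alpha libraries overlapped. Their ratios over alpha and a/alpha cells were nearly equal, at 23.1 and 25.7 for A894334 and at 19.2 and 18.9 for F524553.

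**Figure D1:**
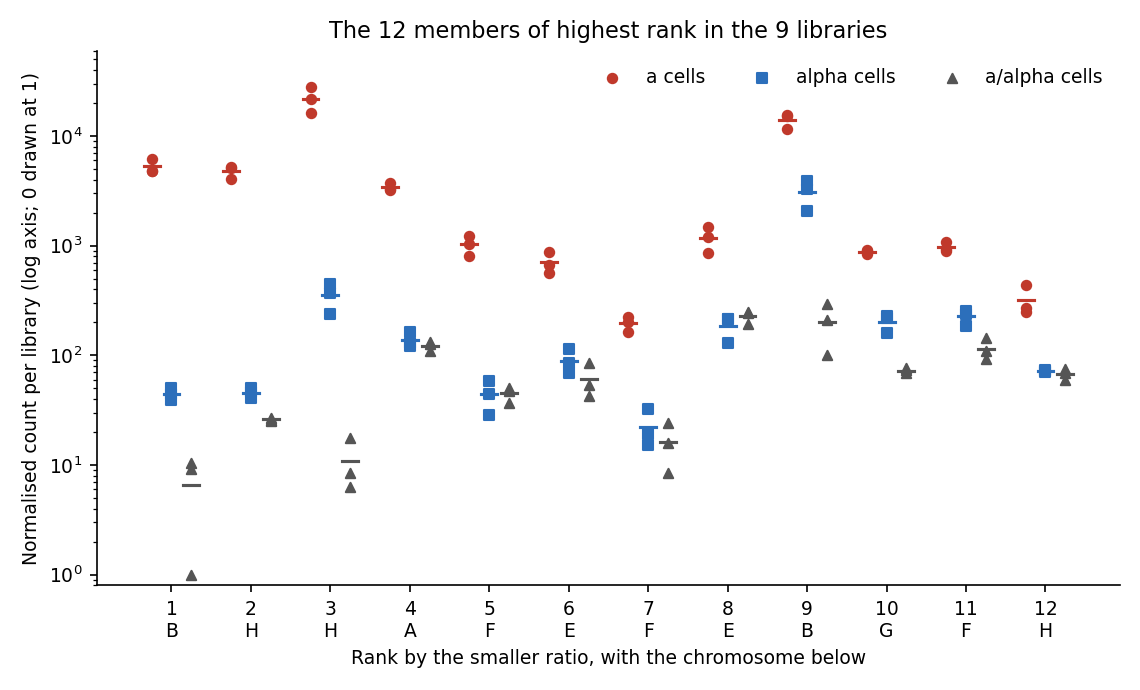
Normalised counts (log axis) of the 12 members of highest rank, with 1 point per library, horizontal bars at the group means, and a, alpha and a/alpha cells from left to right in each. Rank 3 shows the highest a level and a wide step between alpha and a/alpha cells, and the alpha and a/alpha points of ranks 4 and 5 overlap.

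The next 7 members had smaller ratios between 4.03 and 7.23. E771138 (minus strand, to base 772829) and F347642 (minus strand, to base 349333) have the same coding length, 1692 bp, on different chromosomes. E771138 averaged 705 ± 164 normalised counts in a cells, against 88.9 ± 22.6 for alpha and 60.3 ± 22.1 for a/alpha cells (SD, n = 3 each). F347642 was lower in every cell type, at 196 ± 31.9, 22.3 ± 9.01 and 16.2 ± 7.91 in a, alpha and a/alpha cells. The alpha and a/alpha libraries overlapped in both models.

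G1150537 (plus strand, to base 1151508) and F1051101 (plus strand, to base 1053047) instead showed 3 levels. G1150537 had 892, 915 and 834 in a cells, against 159, 218 and 227 in the alpha and 76.0, 68.7 and 73.1 in the a/alpha libraries. F1051101 had 1080, 929 and 900 in a cells, against 253, 240 and 186 in the alpha and 143, 92.4 and 110 in the a/alpha libraries. Neither had any overlap between cell types. E959065 (plus strand, to base 959292), B201411 and H2042658 complete the 12.

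Most members lay near the limit: 19 of 54 had a smaller ratio of 3 or more, and the median was 2.41. The ratio over alpha cells was the smaller one in 39 members and that over a/alpha cells in 15. Just inside the limit were E1219446 (ratios 2.04 over alpha and 2.97 over a/alpha cells), H1116396 (2.03 and 4.62) and B15772 (2.13 and 2.01). Just outside were C22122 (1.99 and 2.29), G1288241 (1.97 and 2.15) and F189907 (3.35 and 1.96). Another 374 models in all had every a library above the other 6 without reaching 2-fold in both ratios, so that this order held in 8.25% of the table. In 13 members the lowest a library was less than 1.5 times the highest of the others. The closest was C158428, with 167, 112 and 144 in a cells, against 46.3, 55.1 and 44.6 in the alpha and 16.9, 72.2 and 102 in the a/alpha libraries.

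Membership near the limit moved with single libraries. Without each library in turn the rule found 50 to 60 models, and 38 of the 54 were kept every time. The best rank among the 16 lost was 34, so the first 33 were kept whichever library was left out. D629561, of rank 36, was lost without a replicate 1 or a/alpha replicate 1. Dividing by library totals in place of size factors gave 114 models, which include all 54, and an added 50 in place of 10 gave 35.

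**Figure D2:**
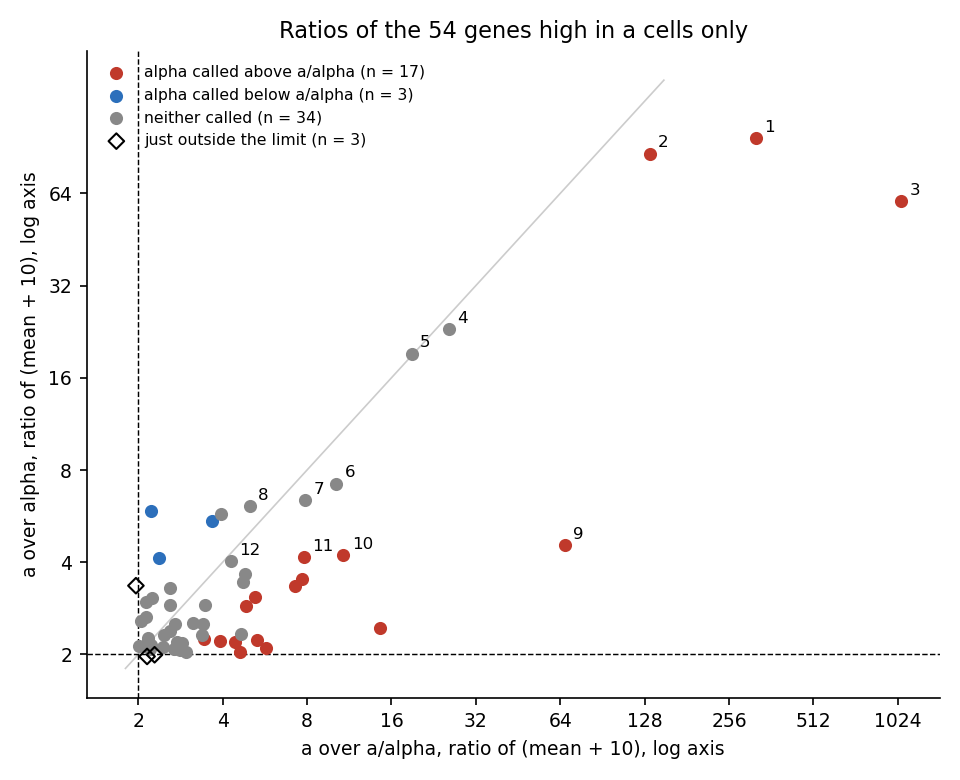
Ratio of a over alpha cells (vertical axis) against the ratio of a over a/alpha cells (horizontal axis) for the 54 members (log axes, group means plus 10), with dashed lines at the limit of 2, a grey line of equal ratios, open diamonds for the 3 models just outside and the first 12 ranks numbered. Members below and to the right of the grey line are those with a larger ratio over a/alpha than over alpha cells, and colours show the edgeR calls between alpha and a/alpha cells: 17 higher, 3 lower and 34 neither.

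The rule made no use of the difference between alpha and a/alpha cells, apart from holding both under the a level, and this difference was tested over all models. Alpha cells were called higher than a/alpha cells in 17 of the 54 members, or 31.5%, beside 6.55% of all tested models. They were called lower in 3, or 5.56%, beside 3.71%. The median log2 fold change was 0.37 over the members and 0.01 over all tested models, and 40 of 54 members had a value above 0, or 74.1% against 50.7% of tested models. By median level the members were higher than all models in a cells (525 against 296 normalised counts). They were lower in alpha cells (139 against 287) and in a/alpha cells (76.5 against 281). The members were also chosen for a difference between cell types, and the other models were not. The part of level and of this choice in these shares was not tested. The label of high in a cells alone does not describe the 17 members called higher in full. In them the order was a above alpha above a/alpha cells, a graded pattern with the lowest level in a/alpha cells.

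The largest step was that of H1844663, at 353 ± 108 normalised counts in alpha cells against 10.9 ± 6.09 in a/alpha cells (SD, n = 3 each). On the log2 scale alpha over a/alpha cells was 4.90 ± 0.41 (SE, adjusted p = 5.15e-06). B201411 (plus strand, to base 201764) had 11518, 15350 and 15434 in a cells, against 2089, 3311 and 3864 in the alpha and 101, 211 and 293 in the a/alpha libraries. Its change was 3.79 ± 0.31 (adjusted p = 4.85e-06), so that its level in alpha cells was nearer to a cells than to a/alpha cells in ratio. G681960 (minus strand, to base 682298) behaved likewise, with 6138, 9822 and 9236 in a cells, against 2463, 3544 and 4285 in the alpha and 490, 508 and 702 in the a/alpha libraries. Its change was 2.57 ± 0.25 (adjusted p = 2.56e-05), and its rank of 27 reflects a ratio of only 2.44 over alpha cells.

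B153832 and G1150537 complete the 5 with the largest steps, at 2.23 ± 0.29 (adjusted p = 0.000371) and 1.49 ± 0.18 (adjusted p = 0.000237). Among the other 12 called higher, changes ran down to 0.58, in E1195026. F1051101, H2039397 and H1116396 were among them, at 1.07 ± 0.20, 0.79 ± 0.21 and 1.14 ± 0.26 on the log2 scale. Without a/alpha replicate 2 the adjusted p was 0.0617 for F1051101 and 0.0698 for H1116396, so both calls were lost, while over their other alternatives both were kept. For H2039397 the adjusted p was 0.0337 and lay between 0.0506 and 0.147 under 6 alternatives, which include upper-quartile factors and leaving out alpha replicate 2 or 3 or a/alpha replicate 2 or 3. The count of 17 was 9 without a/alpha replicate 2, when 1.76% of all tested models were called higher, and was between 12 and 21 without any other library.

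In 3 members the order was a above a/alpha above alpha cells. D629561 (minus strand, to base 631678) had 1853, 1387 and 1137 in a cells, against 241, 247 and 234 in the alpha and 312, 857 and 783 in the a/alpha libraries. Its change was -1.51 ± 0.29 on the log2 scale (SE, adjusted p = 0.00568), and a/alpha replicate 1 stood well under the other a/alpha libraries. F431111 (plus strand, to base 432511) had 571, 635 and 616 in a cells, against 140, 141 and 138 in the alpha and 203, 261 and 289 in the a/alpha libraries, a change of -0.90 ± 0.16 (adjusted p = 0.00387). H1999166 (minus strand, to base 1999423) had 2703, 3125 and 3542 in a cells, against 518, 555 and 617 in the alpha and 886, 689 and 955 in the a/alpha libraries. Its change of -0.58 ± 0.17 (adjusted p = 0.0496) is at the limit, and 9 alternatives gave an adjusted p above it.

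The other 34 members were not called in either direction, which does not show that alpha and a/alpha cells were alike. In 23 of them the change with 2 SE on either side stayed within 1 of 0 on the log2 scale, and in 11 it reached further. A894334 and F524553 are in the first set, at 0.12 ± 0.18 and 0.03 ± 0.28 (SE). E771138 was at 0.42 ± 0.27 and F347642 at 0.19 ± 0.35. E959065 was at -0.29 ± 0.25 and H2042658 at 0.03 ± 0.24. Of the first 12 ranks, 6 members were called higher in alpha than in a/alpha cells, and 6 were not called.

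**Figure D3:**
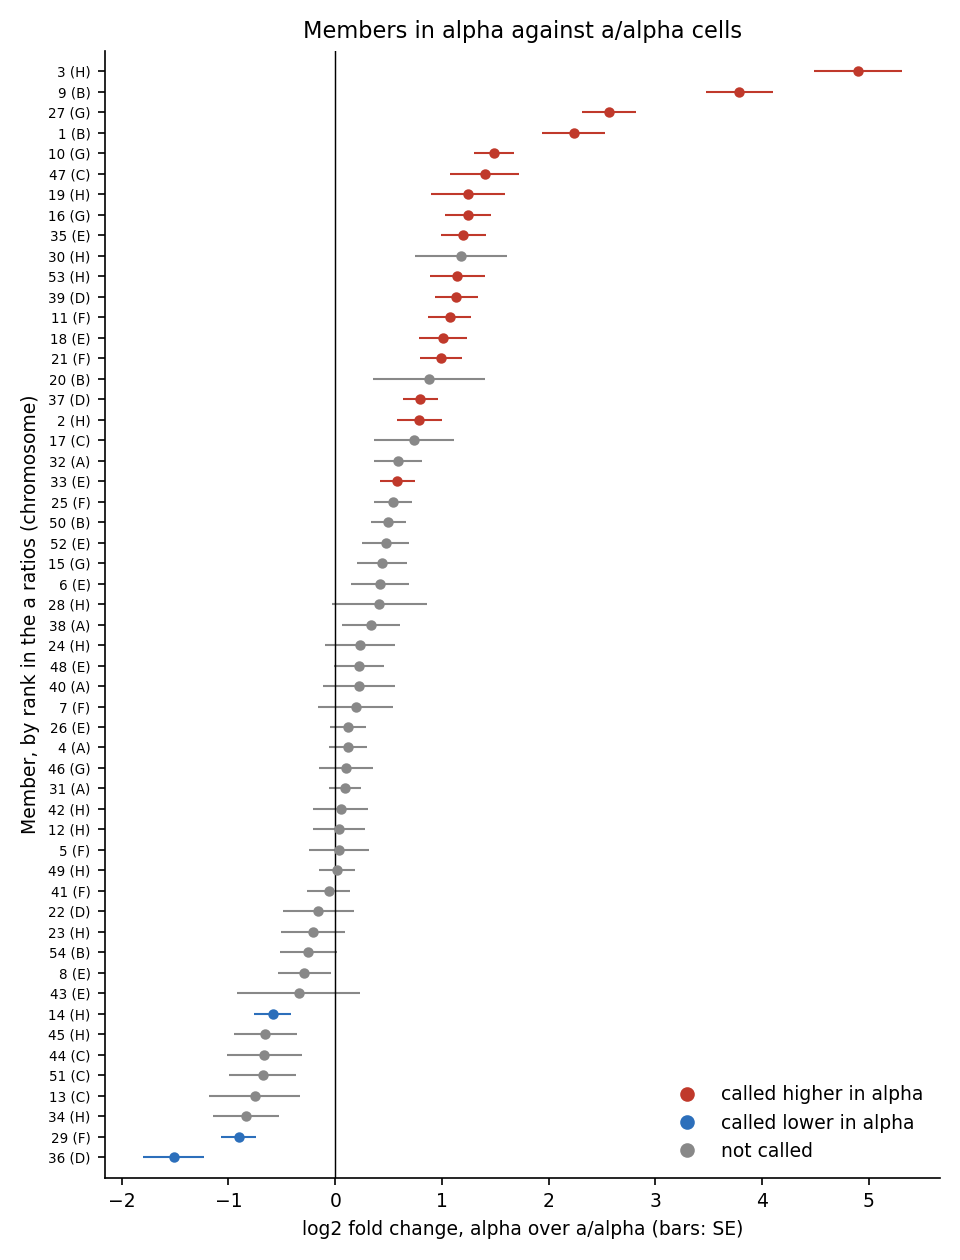
Log2 fold change of alpha over a/alpha cells for each of the 54 members, sorted, with bars of 1 SE and each labelled by its rank and chromosome. Points right of 0 are higher in alpha cells; ranks 3, 9, 27 and 1 lie above 2, and rank 36 lies lowest at -1.51.

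Coding length was not part of the rule. The 54 members had a median of 1230 bp of coding sequence, from 195 to 4635 bp, against 1257 bp over all models, and 5 had several coding parts, or 9.26% against 13.7%. A set of 7 members was shorter than 400 bp, or 12.96% against 8.52% of the table. These 7 held 53.01% of the summed normalised counts of all members in a cells, against 40.4% in the alpha and 18.6% in the a/alpha libraries. Most of the share in a cells lay in H1844663, B201411 and G681960, the 3 most abundant members, which held 48.1%. Per kb of coding length, the 5 members with the highest a level were all among the 7 short ones. They were H1844663 at 74583 normalised counts per kb, B201411 at 39832, G681960 at 24775, H1999166 at 12106 and E959065 at 5209. No correction was made for reads that reach past the ends of short models.

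Levels per kb place the members among all models. In a cells H1844663 ranked 14 of 5189 models by level per kb, against 766 in the alpha and 4661 in the a/alpha libraries. B201411 ranked 47 in a cells, against 157 in the alpha and 1333 in the a/alpha libraries. H1999166 and E959065 moved less: H1999166 ranked 113, 452 and 284 in a, alpha and a/alpha cells, and E959065 ranked 185, 1048 and 828. E959065 had 867, 1200 and 1496 in a cells, against 129, 214 and 216 in the alpha and 245, 195 and 249 in the a/alpha libraries, and its alpha and a/alpha libraries overlapped. Of all members, 11 were in the top 10% of the table per kb in a cells, against 3 in the alpha and 3 in the a/alpha libraries. Below the table's median per kb stood 19 members in a cells, against 36 in the alpha and 41 in the a/alpha libraries. The rule asked for lower levels outside a cells, so nothing is read from the direction of these moves.

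The remaining short members had lower counts in a cells than the other 5. H721167 (plus strand, to base 721361), the shortest at 195 bp, had 183, 183 and 207 in a cells, against 32.4, 69.2 and 65.1 in the alpha and 42.2, 15.6 and 28.3 in the a/alpha libraries. H1682727 (plus strand, to base 1683062) averaged 75.5 ± 6.19 in a cells, against 26.7 ± 10.1 in the alpha and 8.43 ± 8.93 in the a/alpha libraries (SD, n = 3 each), and its a/alpha replicate 1 had no count. The alpha and a/alpha libraries of both overlapped. Of the 7 short members, 4 were called higher in alpha than in a/alpha cells, 1 lower and 2 neither. Over tested models of every length 6.55% were called higher and 3.71% lower. The shares among tested models under 400 bp were not computed, so nothing is read from these counts about short members.

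Short and long members differed in which library was high. In all 7 short members alpha replicate 1 was the lowest alpha library, and in 6 of 7 a replicate 1 was the lowest a library. The median log2 of replicate 1 over the mean of replicates 2 and 3 was -0.42 in a cells and -0.70 in alpha cells for these 7, against -0.34 and -0.39 for 396 tested models under 400 bp. In the 28 members of 1200 bp or more it was 0.22 in a cells and 0.03 in alpha cells, against 0.11 and 0.09 over 2674 tested models. In a/alpha cells the order over tested models was the other way, with a median of 0.17 under 400 bp and -0.03 at 1200 bp or more. The members stood at -0.26 and -0.29. These a/alpha values rest on replicate 1 with 743244 counts, where 15 members had 3 counts or fewer. The part of library and length in the members' differences between cell types was not tested.

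**Figure D4:**
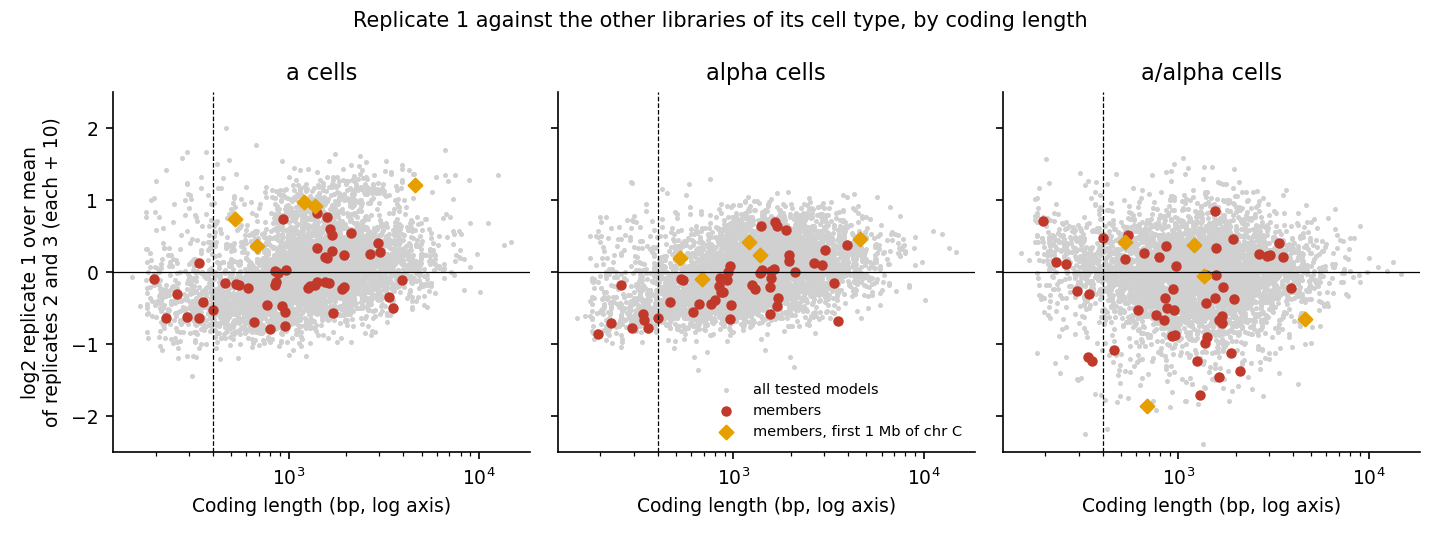
Log2 of replicate 1 over the mean of replicates 2 and 3 in each cell type (10 added to each) against coding length (log axis, dashed line at 400 bp), for all tested models in grey and the 54 members in colour; 2 grey points fall outside the axis. In a and alpha cells short models tend to lie under 0, with members among them, and the 5 members of the first 1 Mb of chromosome C lie above 0 in a cells.

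Members lay on all 8 chromosomes, 14 of them on H, or 25.9% against 19.6% of all models, and 29 on the plus strand and 25 on the minus strand. None overlapped a model on the opposite strand, against 2.99% of the table. In the first 1 Mb of chromosome C lay 5 members, or 9.26% against 8.94% of all models: C481147, C904769, C647156, C649424 and C158428. In each of these a replicate 1 was the highest a library, as it was in 423 of 449 tested models there. The median log2 of a replicate 1 over the mean of a replicates 2 and 3 was 0.91 for the 5 members and 0.94 for the tested models of that stretch. For members elsewhere it was -0.14. C649424, the longest member, had 3756, 1618 and 1615 in a cells, against 1351, 988 and 965 in the alpha and 287, 510 and 401 in the a/alpha libraries. Without a replicate 1 it no longer met the rule, and neither did C647156 or C158428.

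Several members were next to each other. As neighbours along the chromosome, 10 of the 54 formed 5 pairs. H2039397, of rank 2, lay 1677 bp from H2042658 (minus strand, to base 2043590), of rank 12, on the same strand. H2042658 had 440, 250 and 271 in a cells, against 72.2, 73.5 and 70.4 in the alpha and 59.1, 74.5 and 68.5 in the a/alpha libraries, a far smaller step than that of its neighbour.

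A894334, of rank 4, and A892899 (minus strand, to base 893555), of rank 32, are transcribed away from each other, with 778 bp between them. A892899 had 944, 1410 and 1660 in a cells, against 463, 673 and 587 in the alpha and 439, 327 and 399 in the a/alpha libraries. H1112327 (minus strand, to base 1115713) and H1116396 (plus strand, to base 1118042) form another divergent pair, 682 bp apart. Their a libraries did not move alike: H1112327 had 83.3, 94.5 and 121 in a replicates 1, 2 and 3, and H1116396 had 2802, 1966 and 1723. Their highest a library thus differed, replicate 3 for H1112327 and replicate 1 for H1116396.

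B201411 and B202106 (minus strand, to base 203686) point towards each other, 341 bp apart. B202106 was the member of second lowest a level per kb, with 66.0, 34.7 and 34.4 in a cells, against 8.33, 6.13 and 12.5 in the alpha and 8.44, 4.62 and 4.61 in the a/alpha libraries. It was not called between alpha and a/alpha cells (0.88 ± 0.53, SE, adjusted p = 0.279), unlike its partner. C647156 (minus strand, to base 648624) and C649424 (minus strand, to base 654058) are tandem, 799 bp apart, in the stretch where a replicate 1 was high.

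**Figure D5:**
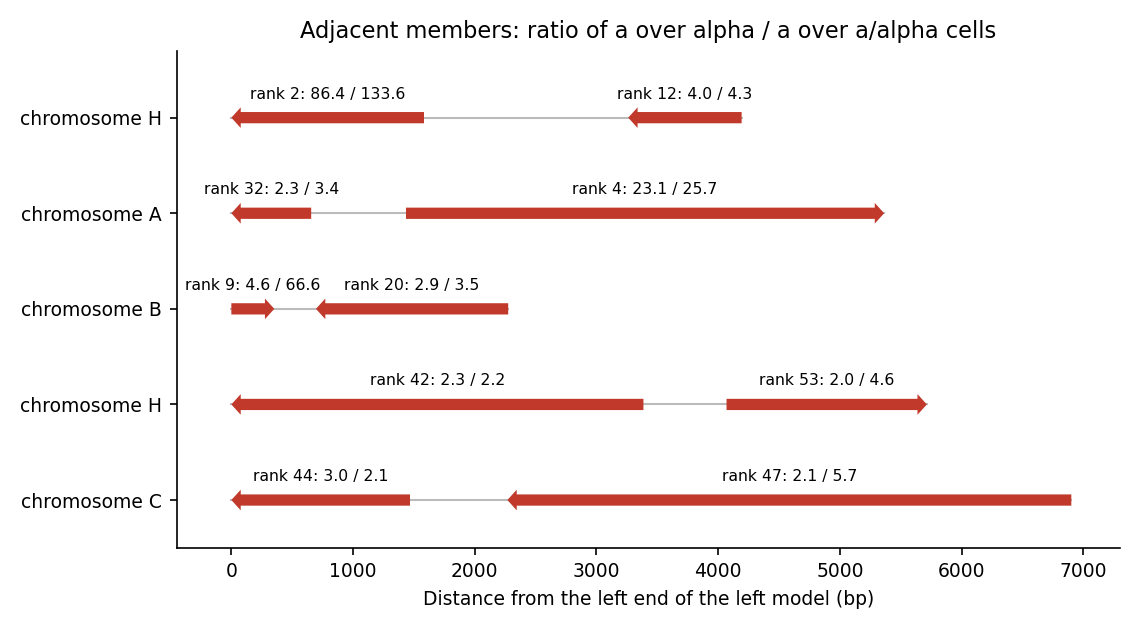
The 5 pairs of adjacent members drawn to scale, with arrows for the direction of transcription, distance in bp from the left end of the left model, and each model's rank and ratios of a over alpha and a over a/alpha cells. In 4 of the pairs the ratios over alpha cells are under 3 for at least 1 of the models, and the chromosome H pair of ranks 2 and 12 has the highest ratios.

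Of 94 tested models that flank a member without being one, 11 were called higher in a than in alpha cells, or 11.7% beside 8.05% of all tested models, and 8 were called lower, or 8.51% beside 9.90%. These shares are near those of the whole table. The fit behind these calls does not pair libraries. With a replicate block, which pairs the libraries of all cell types by number, 19 of the 94 were called higher, beside 15.4% of all tested models. Between a and a/alpha cells 10 were called higher, or 10.6% beside 7.32%. Without a replicate 2, alpha replicate 2 or alpha replicate 3 the 11 became 4, 3 and 4. The share of all tested models called higher also fell, from 8.05% to 5.65%, 3.71% and 3.5%. The 8 became 2 to 5 without any library but alpha replicate 1, and 10 without that one. In the former fits 4.94% to 9.41% of all tested models were called lower, against 9.90% with every library. Without alpha replicate 1 that share rose. A pair of flanks is given as examples, chosen after their values were seen. B151886, divergent from B153832 at 380 bp, averaged 312 normalised counts in a cells, against 212 in the alpha and 263 in the a/alpha libraries. It was among the 11 called higher in a than in alpha cells (log2 fold change 0.57 ± 0.16, SE, adjusted p = 0.0247), and was not called against a/alpha cells (0.26 ± 0.16, adjusted p = 0.328). F528556, 454 bp from F524553 on the same strand, averaged 115 in a cells, against 264 in the alpha and 294 in the a/alpha libraries, the opposite order to that of the member. F528556 was called lower in a cells in both comparisons (log2 fold change -1.18 against alpha cells, adjusted p = 0.00194, and -1.27 against a/alpha cells, adjusted p = 0.0015).

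The authors' deposited tables give log2 fold changes over a/alpha cells. In the authors' deposited table for a over a/alpha cells all 54 members had an adjusted p under 0.05 and were higher in a cells. The rule used that contrast, so nothing is read from this count. In the authors' deposited table for alpha over a/alpha cells 16 members were higher and 2 lower by that limit. All 18 were called in the same direction by edgeR. H2039397, called higher by edgeR, and H1999166, called lower, were not among the 18. Their adjusted p by the authors was 0.148 and 0.152. The share of all models under that limit was not computed for the authors' deposited tables. In alpha against a/alpha cells DESeq2 as run here called 19 members higher, beside 10.0% of all tested models. It called 3 members lower, beside 6.1%. The largest difference between the authors' deposited log2 fold changes and those of edgeR over the members was 0.12 for a over a/alpha and 0.10 for alpha over a/alpha cells. They come from the same experiment and so add no separate evidence.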

How the data were processed

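Read counts for 5189 gene models in 9 libraries were used as deposited. Per the file headers, the authors counted reads over coding parts (CDS) with featureCounts 2.0.1 using strand setting 1; the paths name fastp and STAR, and 14 alignments of which 5 are not analysed here. Single reads of 65 bp came from a directional poly(A) kit, per the labels' protocols. Of the 100 models with the highest counts per kb, 48 had several coding parts, against 13.7% of all models. Counts were taken as sense on this ground, and the match of strand setting 1 to the directional kit was not otherwise checked. The authors also deposited comparison tables with a mean signal, log2 fold changes with their errors, a test score and p-values; the submitters' processing notes name DESeq2. Size factors were medians of ratios to the geometric mean. EdgeR 4.0.16 in R 4.3.3 was fitted to the counts of all 9 libraries (TMM, filterByExpr, quasi-likelihood, Benjamini-Hochberg at 0.05 over 5042 models); all 54 members passed the filter, and DESeq2 1.42.0 was an alternative. A standard error is the log2 fold change over the root of F. P-values set the difference between groups against the spread between these libraries, and each group is 1 strain. The edgeR step for alpha against a/alpha cells was run on simulated counts. These were drawn independently for each library, without effects of replicate number or coding length. Calls under such effects were not tested. Members and lists were chosen with earlier results of these data known. Described by name are the 12 members of highest rank, the 5 highest per kb, the 5 with the largest called change in each direction between alpha and a/alpha cells (3 were called lower), and 3 on either side of the limit. Other models given (those near the closest call, short, on chromosome C or adjacent) were chosen after their values were seen. A list of mating genes matched no model, as the files hold no gene names. Same-numbered a and alpha libraries correlated in their deviations from group means by 0.75, 0.22 and 0.55, over the limit of 0.1 for a pairing by number. The labels do not say what a number shares. The edgeR calls given by name or count leave this pairing out unless a replicate block is named. Between a and alpha cells that unpaired fit called 406 models higher and 499 lower, and the replicate block called 778 and 797.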

Additional observations from a re-analysis of the deposited data

How the results depend on the processing

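The number of members was 54, and 50 to 60 without each library in turn; TMM factors gave 56, an added 1 gave 68, library totals 114 and an added 50 gave 35. Leaving out the first 1 Mb of chromosome C, chosen after seeing the data, gave 49. The share of counts in a cells was 1.32% without the most abundant member and 1.72% with it. Members called between alpha and a/alpha cells were 17 higher and 3 lower, 9 to 21 and 2 to 4 without each library, and 23 and 5 with a replicate block. All tested models called were 330 higher and 187 lower, 89 to 657 and 63 to 515 without each library. They were 516 and 315 by DESeq2, 524 and 396 with these groups alone, 823 and 729 with a replicate block, and 290 lower with upper-quartile factors. For alpha and a/alpha libraries the correlations by number were -0.0059, -0.031 and 0.16, and only the last was over the limit of 0.1. The replicate block pairs these libraries by number all the same. Flanking models called higher in a against alpha cells were 11 of 94, or 11.7%, beside 8.05% of all tested models. With 2 models on each side they were 20 of 187, or 10.7%. With a replicate block they were 19, beside 15.4% of all tested models. Without each library they were 3 to 14, when 3.5% to 10.8% of all tested models were called higher. Flanking models called lower were 8 of 94, and 2 to 10 without each library. They were 3 with upper-quartile factors and 5 with the compared groups alone, beside 7.32% and 7.09% of all tested models. The alpha over a/alpha change was recomputed for the 19 members named by rule, and those in which it reversed were not called. Without each library it was -0.035 to 0.21 for A894334 (lowest without alpha replicate 1), -0.22 to 0.26 for F524553 (lowest without alpha replicate 3; -0.13 without a/alpha replicate 2), -0.18 to 0.56 for F347642 (lowest without alpha replicate 1) and -0.45 to 0.047 for B15772 (highest without a/alpha replicate 2). Upper-quartile factors gave -0.059 for F524553 and -0.052 for H2042658, and a replicate block -0.074 for H2042658. The causes were not tested. Depth limits the a/alpha values of the 15 members at or under 3 counts in a/alpha replicate 1.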
